A study of Mus musculus with 12 samples.

Results

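Ribosome occupancy of 10 genes of the secretory pathway was followed in the central nervous system of mouse embryos: 7 chaperones and folding enzymes of the endoplasmic reticulum (ER), Hspa5, Hsp90b1, Calr, Canx, Pdia3, Pdia4 and Pdia6, and 3 transcription factors of the ER stress response, Atf4, Xbp1 and Ddit3. They were chosen by Ensembl identifier (ENSMUSG00000026864, ENSMUSG00000020048, ENSMUSG00000003814, ENSMUSG00000020368, ENSMUSG00000027248, ENSMUSG00000025823, ENSMUSG00000020571, ENSMUSG00000042406, ENSMUSG00000020484 and ENSMUSG00000025408 in the order above), and all 10 were among the 10481 genes of the count table. Ribosome profiling counts the short mRNA fragments that ribosomes shield from nuclease, so a gene's count rises both with the amount of its mRNA and with the ribosomes on each mRNA. Reads with several alignments were kept, so counts may be shared with near-identical copies of a gene. No matching RNA-seq was used here, so mRNA level and ribosome load cannot be told apart. Nor can fewer cells of a type be told from less mRNA per cell in whole tissue.

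Proteins that enter the ER are folded by a shared machinery. Hspa5 (BiP or Grp78) is its Hsp70 chaperone and Hsp90b1 (Grp94) its Hsp90 chaperone, Calr (calreticulin) and Canx (calnexin) are lectin chaperones that hold glycoproteins, Pdia3 (ERp57) is the disulfide isomerase that works with both lectins, and Pdia4 and Pdia6 are further disulfide isomerases. When folding demand exceeds capacity, the unfolded protein response raises these chaperones through the sensors ATF6 and IRE1, the latter by splicing Xbp1 mRNA, while PERK, through phosphorylated eIF2, favours translation of Atf4, which in turn activates Ddit3 (CHOP), a transcription factor linked to cell death. Growing neurons make large amounts of membrane and secreted protein, and motor neurons are known for their sensitivity to ER stress in several diseases.

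Libraries came from brain and spinal cord of E14.5 embryos and formed 4 groups of 3 libraries, and the study describes 3 embryos for each genotype. The line was the Taiwanese mouse (strain 005058), a model of severe spinal muscular atrophy (SMA), the motor neuron disease caused by too little SMN protein. Controls were Smn+/-; SMN2tg/0 and SMA embryos were Smn-/-; SMN2tg/0, so controls lacked 1 of the mouse alleles and both genotypes carried the human SMN2 transgene, which makes a low amount of functional SMN. Cycloheximide, which stalls elongating ribosomes, was in the lysis buffer of every library.

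The depth of a library ranged from 3683842 to 9117017 counts for brain and from 5162190 to 12793955 for spinal cord. The targeted Smn1 gene was not checked here, since only 1999 of the 10481 identifiers could be named beside the members, and the genotype of a library rests on its label. Tissue labels were checked with markers. Hoxc8 and Hoxc6, which mark the trunk spinal cord, summed to 0.42 to 1.46 CPM (counts scaled to library size, with TMM factors over the 12 libraries) in brain and 131 to 211 in spinal cord. Apob, a liver and yolk sac gene, reached 911 CPM in SMA spinal cord library 1 and 294 in control spinal cord library 3. Results that change without these libraries are given both ways.

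Because these chaperones are known targets of ATF6, their promoters were read from the RefSeq promoter table of build GRCm38.p6, which held an entry for each of the 10 members. The ER stress response element (ERSE), which ATF6 binds together with NF-Y, was searched on both strands of the 250 bases before the transcription start as CCAAT, 9 free bases and CCACG. It was present in 5 of 10 members, against 37 of 32841 promoters (0.113%) in the whole table. The chaperones were searched as known targets of ATF6, so this contrast is a description and not a test. The stretches below are written 5′ to 3′ along the gene's own strand, in lower case, with the matched letters in capitals. Where the element lies on the opposite strand it reads as CGTGG, 9 free bases and ATTGG. The whole 250 bases are shown for the 3 chaperones on which the results below turn: Hspa5 at chr2:34771840-34772089 on the plus strand, with 1 element, Hsp90b1 at chr10:86705445-86705694 on the minus strand, with 1 element in either orientation, and Calr at chr8:84846932-84847181 on the minus strand, with 1 element in the opposite orientation.
Hspa5: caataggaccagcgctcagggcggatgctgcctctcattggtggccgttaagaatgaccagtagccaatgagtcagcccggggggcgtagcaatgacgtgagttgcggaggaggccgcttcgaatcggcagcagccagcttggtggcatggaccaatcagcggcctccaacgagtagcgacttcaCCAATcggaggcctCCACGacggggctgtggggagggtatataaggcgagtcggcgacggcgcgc
Hsp90b1: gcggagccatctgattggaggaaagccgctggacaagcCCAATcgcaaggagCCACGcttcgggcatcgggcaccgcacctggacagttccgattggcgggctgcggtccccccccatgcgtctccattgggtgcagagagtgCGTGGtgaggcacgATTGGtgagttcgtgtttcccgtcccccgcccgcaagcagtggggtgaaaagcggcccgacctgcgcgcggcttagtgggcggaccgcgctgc
Calr: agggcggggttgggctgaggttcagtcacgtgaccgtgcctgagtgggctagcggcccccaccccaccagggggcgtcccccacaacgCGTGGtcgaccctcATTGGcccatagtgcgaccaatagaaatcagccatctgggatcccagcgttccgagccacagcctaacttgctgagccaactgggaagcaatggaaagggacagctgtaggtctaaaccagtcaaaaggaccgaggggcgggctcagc

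Canx and Pdia6 held 1 element each. Pdia3 and Pdia4 held only a form without the final G (CCAAT, 9 free bases and CCAC), which is contained in the full element and overlaps it in the other 5, and which 0.32% of all promoters held. These elements are shown with a short flank for comparison: Canx at chr11:50325785-50325833 (minus strand), Pdia6 at chr12:17266476-17266524 (plus strand), Pdia3 at chr2:121413858-121413901 (plus strand) and Pdia4 at chr6:47813587-47813634 (minus strand), with the shortened form in capitals for the last pair.
Canx: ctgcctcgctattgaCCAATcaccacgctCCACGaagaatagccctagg
Pdia6: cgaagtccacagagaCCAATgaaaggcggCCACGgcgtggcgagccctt
Pdia3: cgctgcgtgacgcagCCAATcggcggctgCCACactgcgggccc
Pdia4: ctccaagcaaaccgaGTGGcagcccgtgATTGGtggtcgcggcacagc
No match to either form was found in the same window of Atf4 (gene at chr15:80255184-80257545), Xbp1 (chr11:5520641-5525993) or Ddit3 (chr10:127290793-127296291). The CCAAT letters by themselves were in 9 of 10 members, all but Xbp1, and in 33.9% of all promoters. A match is a string of letters, and no binding was measured.

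The chaperones were among the genes with more footprints for their length, which reflects mRNA level and ribosome load together. Per kilobase of the deposited gene length, the mean over 12 libraries was 190 CPM per kb for Hsp90b1, 174 for Calr, 144 for Hspa5, 126 for Canx, 106 for Pdia3, 66.1 for Pdia6 and 46.8 for Pdia4, against a median of 15.4 CPM per kb over all genes. The transcription factors had 18.9 for Atf4, 14.8 for Xbp1 and 4.82 for Ddit3. Hsp90b1 thus ranked 213 of 10481 genes and Ddit3 ranked 9195. The order held in each group apart from its upper end, where Calr, at 187 CPM per kb, did not differ beyond its spread from Hsp90b1, at 186, in SMA spinal cord. The 10 members together took between 0.302% and 0.342% of a library's counts.

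Within groups, the spread between embryos was largest for Ddit3. The coefficient of variation over 3 embryos was 2.04% to 5.49% for Pdia3, 2.41% to 6.13% for Pdia4 and 2.05% to 7.43% for Pdia6, the disulfide isomerases, and 1.85% to 8.17% for Hspa5, but 17.5% to 41.4% for Ddit3, whose counts lay between 13 and 132. Canx had 572 ± 31.2 CPM in brain of controls and 564 ± 47.4 in brain of SMA embryos, and 582 ± 37.4 and 653 ± 46.8 in the respective spinal cords (SD, n = 3 in each). Pdia4 stayed between 106 ± 4.24 in spinal cord of controls and 115 ± 3.56 in that of SMA embryos, and Atf4 between 41.4 ± 4.14 in control brain and 46.9 ± 5.2 in SMA brain (SD, n = 3). The 4 group means of Atf4 thus lay within about the spread between embryos, those of Pdia4 spanned about 2 SD, and Canx was highest in SMA spinal cord.

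**Figure D1:**
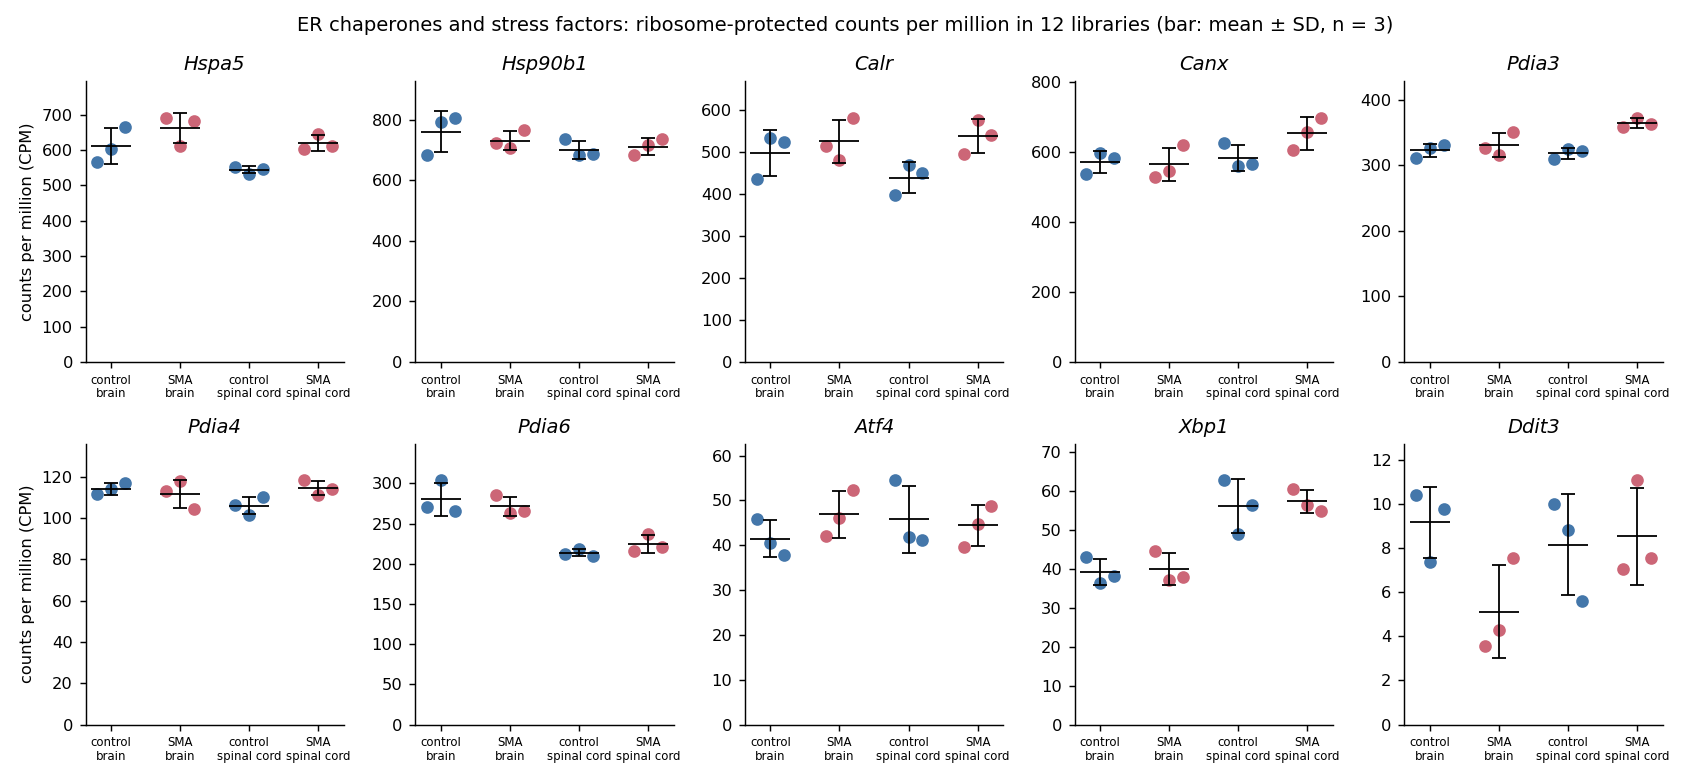
CPM (vertical axis, from 0, with TMM factors over the 12 libraries) of the 10 members in each library of the 4 groups, blue for control and red for SMA, with the group mean and SD (n = 3) in black. Hspa5, Calr and Pdia3 lie higher in every SMA spinal cord library than in any control spinal cord library, Ddit3 is lowest in SMA brain, and Pdia6 and Xbp1 separate brain from spinal cord.

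SMA was compared with control in spinal cord, the tissue that holds most of the motor neurons lost in the disease. Calr, Hspa5 and Pdia3 were higher in SMA at an unadjusted p below 0.05, by 1.13-fold to 1.21-fold, and no member was called lower. That makes 3 of 10 members, against 6.99% of all genes called in either direction and 3.73% called higher. None of them passed after Benjamini-Hochberg adjustment over the 10481 genes in edgeR's quasi-likelihood test, where no gene of the table did (733 genes had an unadjusted p below 0.05), and none reached the study's threshold of an absolute log2 fold change of 0.5, as 0.983% of all genes did. The groups did not overlap for 4 members, these 3 and Pdia4, against 14.7% of all genes.

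Hspa5, the Hsp70 of the ER, had 553, 534 and 547 CPM in the control spinal cords and 605, 647 and 612 in the SMA spinal cords. Every SMA embryo was above every control, and the control values lay within a few percent of each other. The log2 fold change was 0.18 (SE 0.06, 95% interval 0.04 to 0.31, unadjusted p = 0.0171, adjusted p = 0.684). Hsp90b1, its Hsp90 partner, did not follow. It had 735, 682 and 685 CPM in controls and 682, 715 and 736 in SMA, wholly overlapping, with a log2 fold change of 0.01 (SE 0.06, 95% interval -0.13 to 0.15, unadjusted p = 0.892).

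Among the lectin chaperones, Calr showed the greatest difference of the 10 members in this tissue. It had 398, 470 and 450 CPM in controls and 495, 577 and 541 in SMA, with no overlap, and its log2 fold change was 0.28 (SE 0.09, 95% interval 0.07 to 0.49, unadjusted p = 0.0155, adjusted p = 0.684). Canx, the membrane-bound lectin, had a log2 fold change of 0.15 (SE 0.08, unadjusted p = 0.0938), and its groups overlapped. Pdia3, the isomerase recruited by both lectins, had 309, 325 and 322 CPM in controls and 358, 373 and 363 in SMA. Its SMA values lay above all of its control values, with a log2 fold change of 0.18 (SE 0.06, 95% interval 0.04 to 0.33, unadjusted p = 0.0216, adjusted p = 0.684).

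The remaining isomerases differed less. Pdia4 had a log2 fold change of 0.10 (SE 0.07, unadjusted p = 0.218) and Pdia6 of 0.06 (SE 0.07, unadjusted p = 0.446). All 7 chaperones thus had a positive value, with a median of 0.15 against -0.01 over all genes. The transcription factors lay around 0: Atf4 at -0.06 (SE 0.15, unadjusted p = 0.695), Xbp1 at 0.02 (SE 0.11, unadjusted p = 0.869) and Ddit3 at 0.05 (SE 0.29, unadjusted p = 0.871). For Ddit3 the 95% interval, -0.63 to 0.73, leaves room for a sizeable change in either direction.

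The 3 calls in spinal cord were sensitive to single embryos and to abundance. Over 14 alternative settings Calr was called in 12, Hspa5 in 11 and Pdia3 in 9, and not every loss is listed here. Without SMA spinal cord library 2 the count of called members was 0, with Hspa5 at 0.14, Calr at 0.22 and Pdia3 at 0.16, and without control spinal cord library 1 Hspa5 (0.19) and Calr (0.22) were still called, Pdia3 (0.17, unadjusted p = 0.061) was not and Canx (0.21, unadjusted p = 0.0335) was. Without control spinal cord library 3, which held Apob, Hspa5 (0.18) and Calr (0.30) were called and Pdia3 (0.19, unadjusted p = 0.0503) was not, and without SMA spinal cord library 1, which held more of it, all 3 were called, at 0.19, 0.33 and 0.19 in the order Hspa5, Calr and Pdia3, as was Canx (0.20, unadjusted p = 0.0411). The chaperones are abundant, so the trend of each library's counts on abundance bears on them. When the trend on counts per base in each library was taken out, so that a gene was read against genes of like abundance, the count was 0, Hspa5 was at -0.0049, Calr at 0.08 and Pdia3 at 0.03, and Calr, Pdia3 and Pdia4 were the chaperones that kept a positive value. Whether this trend is technical was not tested.

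Other cell types were followed through the marker genes that had a name: 2 of 7 for neurons, 2 of 6 for neural progenitors, 2 of 6 for connective tissue, 1 of 6 for liver and yolk sac, and 0 for endothelium, blood and choroid plexus. Connective tissue secretes much protein, and its markers Col1a1 and Sparc summed to 650 to 773 CPM in SMA and 531 to 696 in control spinal cord. Most of the sum was Sparc, at a log2 fold change of 0.19 (SE 0.10), Col1a1 was at -0.73 (SE 0.61), and neither was called. The markers of neural progenitors differed in direction: Nes was lower in SMA spinal cord (-0.41, SE 0.11, unadjusted p = 0.00662) and Fabp7 was at 0.32 (SE 0.17, unadjusted p = 0.098). The neuronal Elavl3 (0.17, SE 0.09) and Map2 (0.12, SE 0.09) were not called. Their part in the result was not tested.

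In brain, Ddit3 was lower in SMA and none of the chaperones passed the test. Ddit3 was the only member of 10 at an unadjusted p below 0.05, against 5.05% of all genes and 3.28% called lower, and it also passed the study's thresholds, as 1.53% of all genes did. No gene of the table passed after adjustment (529 had an unadjusted p below 0.05). Ddit3 had 10.4, 7.35 and 9.76 CPM in control brains, from 95, 35 and 40 counts, and 3.55, 4.27 and 7.53 CPM in SMA brains, from 13, 23 and 27 counts. SMA library 3 lay just above control library 2, so the groups touched. The log2 fold change was -0.86 (SE 0.28, 95% interval -1.47 to -0.25, unadjusted p = 0.00903, adjusted p = 0.902 in edgeR), and over 14 alternative settings it stayed between -1.20 and -0.69 with an unadjusted p between 0.00115 and 0.0457. Counts per gene do not separate upstream open reading frames from the main frame, which matters for Atf4 and Ddit3, whose leaders carry such frames.

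Atf4, which acts upstream of Ddit3, was not lower in SMA brain: it had 45.9, 40.6 and 37.8 CPM in controls and 42.1, 46.2 and 52.4 in SMA, with a log2 fold change of 0.19 (SE 0.13, 95% interval -0.10 to 0.47, unadjusted p = 0.178). Xbp1 was at 0.03 (SE 0.13, unadjusted p = 0.795), and neither factor passed the test in brain. Hspa5 had 567, 602 and 666 CPM in control brains and 692, 612 and 683 in SMA brains, which overlapped, and a log2 fold change of 0.13 (SE 0.09, 95% interval -0.07 to 0.34, unadjusted p = 0.192). Calr was at 0.10 (SE 0.11), Pdia3 at 0.05 (SE 0.09), Pdia4 at -0.01 (SE 0.10), Pdia6 at -0.03 (SE 0.09) and Hsp90b1 at -0.04 (SE 0.09), and Canx was nearest to 0, at -0.0038 (SE 0.09). None of the 7 chaperones had groups that did not overlap, as 11.0% of all genes did. With the abundance trend taken out, Hsp90b1 was called lower in SMA brain (-0.15, unadjusted p = 0.0358) and Ddit3 was at -0.79.

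Of the progenitor and of the connective tissue markers in brain, 1 of each pair was lower beside Ddit3 and the other was not called. Nes was lower in SMA brain (log2 fold change -0.33, SE 0.11, unadjusted p = 0.00934), while Fabp7 was at 0.17 (SE 0.12). Col1a1 was lower (-0.95, SE 0.35, unadjusted p = 0.0186), at 3.26 ± 1.35 CPM in SMA and 6.39 ± 2.45 in control (SD), while Sparc was at 0.0032 (SE 0.09). The neuronal Elavl3 (0.17, SE 0.09) and Map2 (0.09, SE 0.10) were not called, and Apob was at 33.6 CPM in SMA brain library 1 and at most 2.30 in the other brains. Without that library Ddit3 had a log2 fold change of -0.69 (unadjusted p = 0.0384). The part of these cells in the result was not tested.

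**Figure D2:**
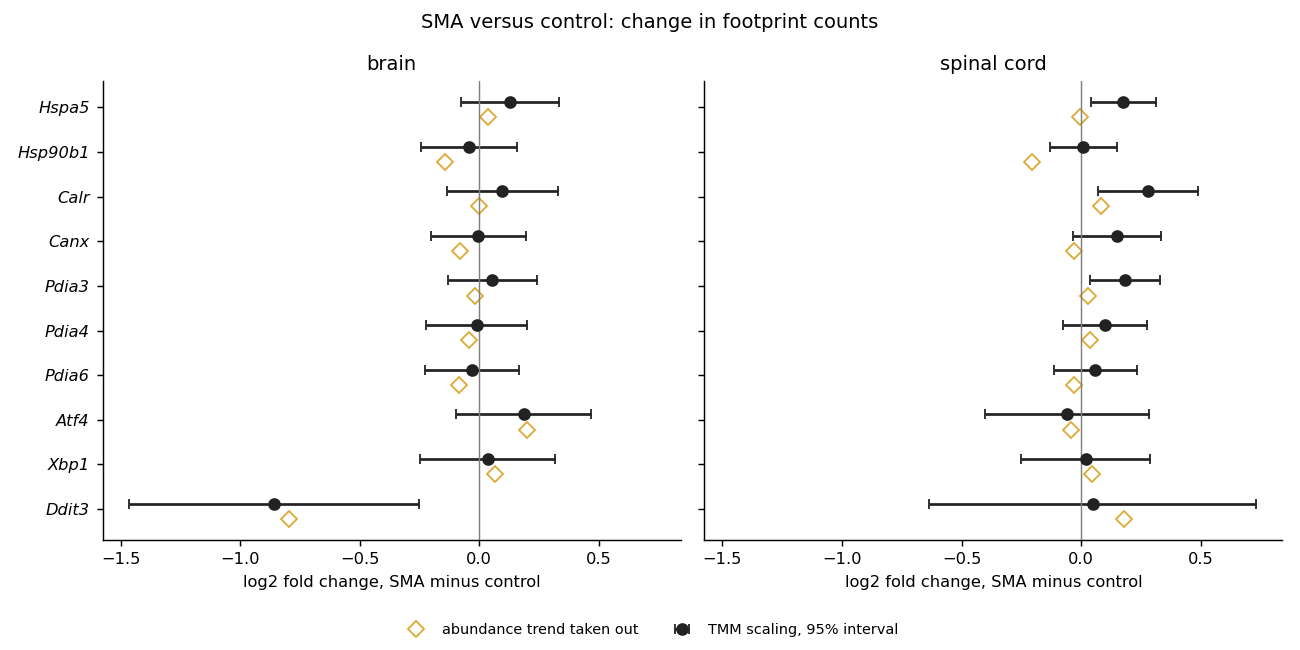
Log2 fold change of SMA over control (horizontal axis) for the 10 members in brain and in spinal cord, as black points with 95% intervals from edgeR, and the same value with each library's abundance trend taken out as open diamonds. In spinal cord Hspa5, Calr and Pdia3 have intervals above 0 and diamonds near 0, and in brain Ddit3 lies at -0.86, with its diamond at -0.79.

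Hspa5 and Hsp90b1 are both ER chaperones of high abundance, and the ratio of their raw counts within a library does not depend on library scaling. These ratios were chosen after the values had been seen and were given no test. In control brains there were 0.829, 0.762 and 0.825 counts of Hspa5 for each count of Hsp90b1, and in SMA brains 0.959, 0.868 and 0.893. In spinal cord the ratio was 0.753, 0.782 and 0.799 in controls and 0.887, 0.905 and 0.832 in SMA. All SMA libraries were thus above all control libraries of their tissue. Calr counts per Hsp90b1 count were 0.636 to 0.675 in control and 0.683 to 0.761 in SMA brain, and 0.541 to 0.689 in control and 0.727 to 0.807 in SMA spinal cord, again with no overlap. Calr counts per Canx count did overlap in both tissues. They were 0.811 to 0.899 in control and 0.884 to 0.972 in SMA brain, and 0.636 to 0.843 in control and 0.776 to 0.878 in SMA spinal cord. Of 9780 genes averaging 20 or more counts, 8.18% were higher per Hsp90b1 count in every SMA brain, 5.87% in every SMA spinal cord and 2.30% in both, and the 2 tissues may share embryos.

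Ddit3 was set against Atf4, the factor upstream of it, in the same way. Ddit3 counts per Atf4 count were 0.226, 0.181 and 0.258 in control brains and 0.0844, 0.0924 and 0.144 in SMA brains. The groups did not overlap, and 19.2% of genes averaging 20 or more counts were likewise lower per Atf4 count in every SMA brain. In spinal cord the ratio was 0.136 to 0.211 in controls and 0.154 to 0.247 in SMA, and the groups overlapped.

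**Figure D3:**
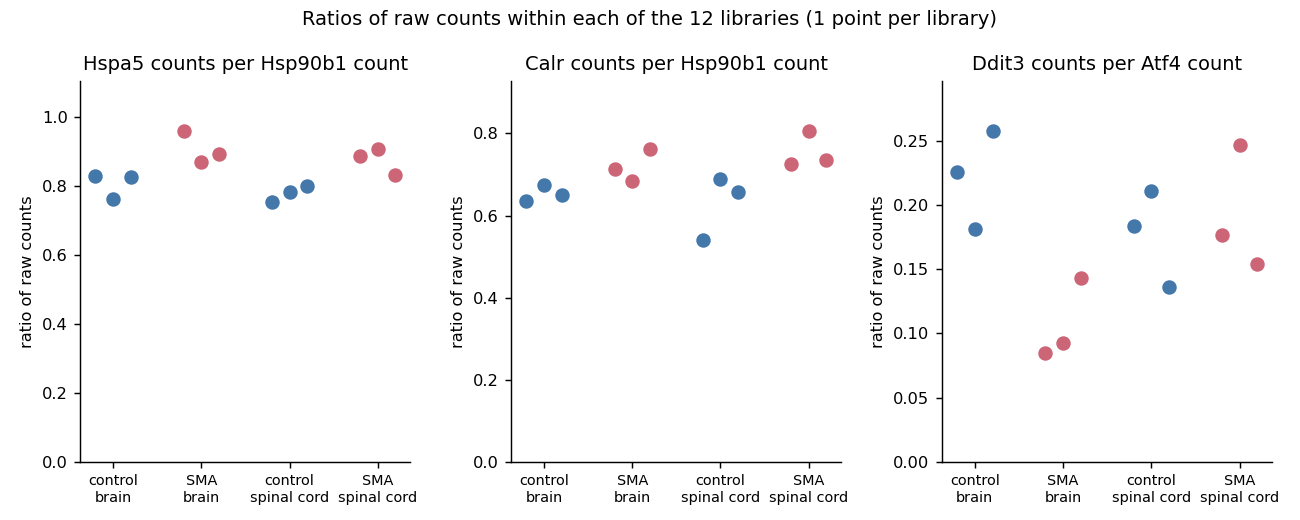
Ratio of raw counts (vertical axis, from 0) within each library for Hspa5 per Hsp90b1, Calr per Hsp90b1 and Ddit3 per Atf4, 1 point per library, blue for control and red for SMA. The first pair of ratios is higher in all SMA libraries than in the controls of the same tissue, and Ddit3 per Atf4 is lower in SMA brain, at 0.0844 to 0.144 against 0.181 to 0.258.

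Whether the effect of genotype differed between the tissues was tested as an interaction. No member passed at an unadjusted p below 0.05, against 2.38% of all genes, and no gene passed after adjustment in edgeR (249 had an unadjusted p below 0.05). Ddit3 came nearest, with its SMA effect lower in brain than in spinal cord by a log2 value of -0.92 (SE 0.44, 95% interval -1.88 to 0.05, unadjusted p = 0.0596). All 7 chaperones had a negative interaction, with a median of -0.14 against -0.03 over all genes, the most negative being Calr at -0.21 (SE 0.15, unadjusted p = 0.173). With the abundance trend taken out Hspa5 (0.04) and Hsp90b1 (0.05) were positive. The calls in spinal cord are therefore not shown to differ from the values in brain.

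Brain and spinal cord were next compared within each genotype, with p-values adjusted over all genes. Pdia6 was higher in brain and Xbp1 higher in spinal cord, in controls and in SMA embryos alike, and the other members did not pass. That is 2 of 10 members in each genotype, against 41.1% of all genes in controls and 40.4% in SMA. With the abundance trend taken out, 6 members were called in controls and 4 in SMA. The share of all genes called in that setting is not given here, and the shares above do not apply to it. Groups did not overlap for 4 members in controls (Hspa5, Pdia4, Pdia6 and Xbp1, against 54.0% of all genes) and 3 in SMA (Pdia3, Pdia6 and Xbp1, against 51.8%).

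Pdia6 had 271, 304 and 265 CPM in control brains and 212, 219 and 210 in control spinal cords. All brain values were above all spinal cord values, and the log2 fold change was 0.39 (SE 0.07, 95% interval 0.23 to 0.55, edgeR adjusted p = 0.00146). In SMA embryos Pdia6 had 285, 263 and 265 CPM in brain and 216, 237 and 221 in spinal cord, a log2 fold change of 0.27 (SE 0.07, edgeR adjusted p = 0.012). Without SMA brain library 1 this call was lost narrowly (0.23, adjusted p = 0.051), as it was with the abundance trend taken out (0.15, adjusted p = 0.107).

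Xbp1, the target of IRE1, ran the other way. Control brains had 42.9, 36.4 and 38.1 CPM and control spinal cords 62.6, 48.9 and 56.4, with a log2 fold change of -0.51 (SE 0.11, 95% interval -0.76 to -0.27, edgeR adjusted p = 0.00387). SMA brains had 44.6, 37.1 and 37.9 CPM and SMA spinal cords 60.5, 56.3 and 54.8, with a log2 fold change of -0.52 (SE 0.12, edgeR adjusted p = 0.00399). In either genotype every spinal cord lay above every brain, and the call stood in all 19 alternative settings. Xbp1 counts do not separate the spliced mRNA, which makes the active factor, from the unspliced one.

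In the main test, no other member differed between the 2 tissues at an adjusted p below 0.05. In controls Hspa5 had a log2 fold change of 0.17 (SE 0.07, edgeR adjusted p = 0.0821), Calr of 0.18 (SE 0.10), Hsp90b1 of 0.12 (SE 0.07), Pdia4 of 0.11 (SE 0.08), Pdia3 of 0.02 (SE 0.06) and Canx of -0.03 (SE 0.08). In SMA embryos Canx was at -0.21 (SE 0.08, edgeR adjusted p = 0.0582), Pdia3 at -0.14 (SE 0.06, adjusted p = 0.0962) and Ddit3 at -0.74 (SE 0.32, adjusted p = 0.0858). The direction of Hsp90b1, Calr and Pdia3 turned with the abundance trend: once it was taken out, Hsp90b1 (-0.25), Calr (-0.17) and Pdia3 (-0.25) were called lower in control brain than in control spinal cord. Canx, already below 0, was then called too (-0.34), Hspa5 was at -0.16 without a call (adjusted p = 0.0957), and Pdia6 (0.20) and Xbp1 (-0.43) kept their calls.

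**Figure D4:**
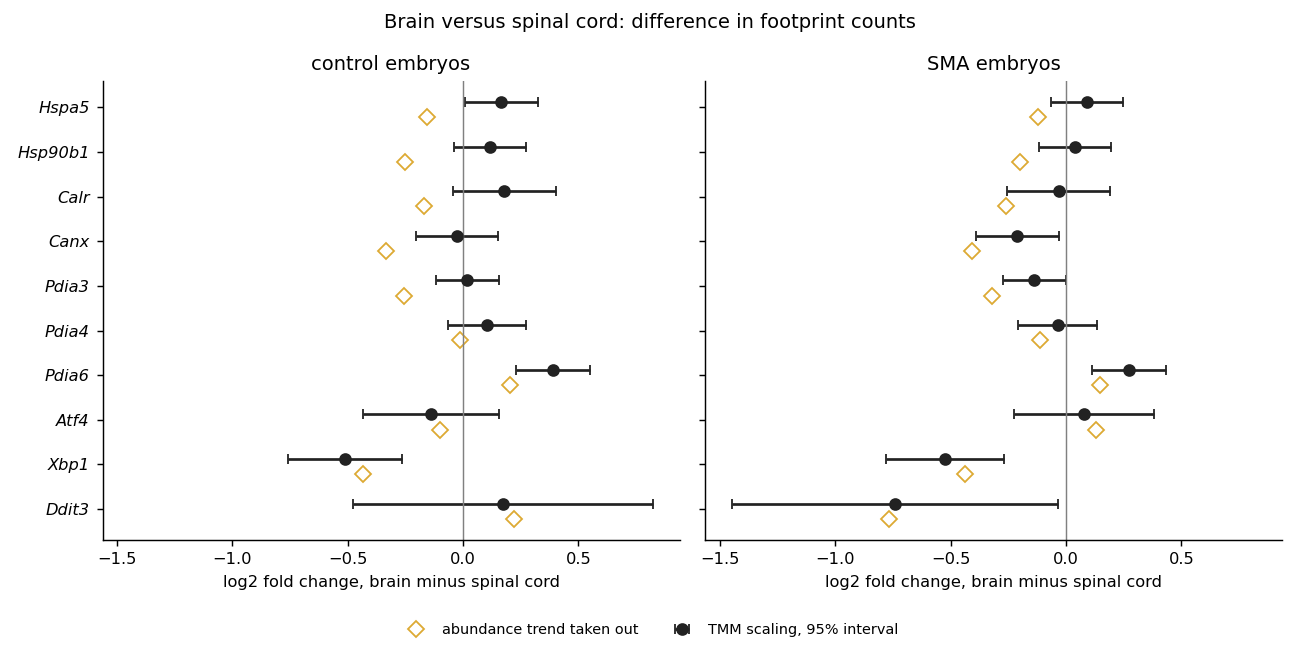
Log2 fold change of brain over spinal cord (horizontal axis) for the 10 members in control and in SMA embryos, as black points with 95% intervals from edgeR, and the same value with each library's abundance trend taken out as open diamonds. Pdia6 lies to the right of 0 and Xbp1 to the left in both genotypes, while the diamonds of Hsp90b1, Calr, Canx and Pdia3 lie to the left of 0.

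Embryo-to-embryo variation was shared among some of the chaperones. After each group's mean log2 CPM was subtracted, Pearson's r over the 12 libraries was 0.93 between Calr and Pdia3, which act on the same glycoproteins, 0.84 between Hsp90b1 and Canx and 0.70 between Hspa5 and Hsp90b1. Of the 21 pairs of chaperones 15 had a positive r, with a median of 0.38, whereas 9 of the 21 pairs of a chaperone with a transcription factor did, with a median of -0.12. Pdia4 stood aside, at -0.59 with Pdia3 and -0.47 with Calr, and Ddit3 was at 0.63 with Atf4, the factor upstream of it, and -0.73 with Pdia4. Canx was slightly nearer to Atf4 (0.65), at place 320 of 9780 genes in likeness to it, with Ddit3 at place 382. The points share libraries, depth and abundance trend, so these values are descriptions only.

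**Figure D5:**
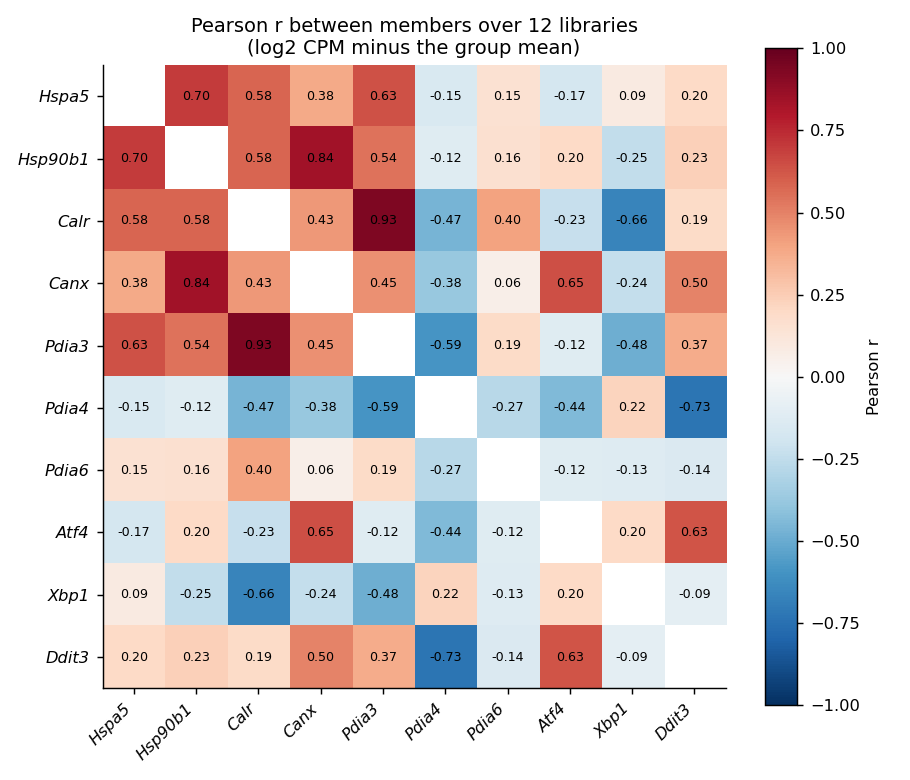
Pearson's r (colour scale from -1 to 1) between each pair of the 10 members over 12 libraries, from log2 CPM with the mean of each of the 4 groups subtracted. The abundant chaperones Hspa5, Hsp90b1, Calr, Canx and Pdia3 form a block of positive values, and Pdia4 and Xbp1 are mostly negative with them.

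Among 1928 named genes averaging 20 or more counts, those most like Hspa5 by the same measure over 12 libraries were Dynlt1c (r = 0.84), Psap (0.84), Hsp90aa1 (0.81), Rps15a (0.80) and Parvg (0.80). Psap encodes prosaposin, a secretory pathway cargo, and Hsp90aa1 is the cytosolic Hsp90. Those most like Atf4 were Actr2 (0.89), Pttg1 (0.85), Mta1 (0.84), Cnot11 (0.83) and Zcchc10 (0.82). For comparison, Hsp90b1 was at place 258 of 9780 genes in likeness to Hspa5.

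Further genes of the pathway were counted from a list for each branch, of which only the genes with a name at hand could be followed. Of 30 further ER folding symbols, older and newer names of a gene counted apart, 6 genes were followed. None of them was called between genotypes in either tissue. In controls 5 of these 6 were lower in brain than in spinal cord at an adjusted p below 0.05, the opposite side from Pdia6. They were Dnajb9 (log2 fold change -0.66, SE 0.19, edgeR adjusted p = 0.0167) and Dnajc3 (-0.61, SE 0.18, adjusted p = 0.0174), both J-domain partners of Hspa5, Sdf2 (-0.37, SE 0.11, adjusted p = 0.0204), Ero1l (-0.93, SE 0.32, adjusted p = 0.0339), the oxidase that recharges the disulfide isomerases, and Dnajb11 (-0.33, SE 0.12, adjusted p = 0.036), a further J-domain partner. The median over the 6 was -0.49, against -0.0031 over all genes, and in SMA embryos 3 of 6 were lower in brain (Sdf2, Dnajb11 and Dnajc3). Ero1l was at -0.0073 (SE 0.33) in SMA embryos, and its control spinal cords spread from 19.6 to 43.0 CPM. Alternative settings are not given for these list genes. Of all genes, 20.1% were called lower in brain in controls and 21.0% in SMA. Prkcsh, a subunit of glucosidase II, was the exception, at 0.18 (SE 0.09) in controls.

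For ER-associated degradation, 5 of 25 symbols were followed, older and newer names of a gene again counted apart. None was called between genotypes, and 2 were lower in control brain than in control spinal cord: Erlec1, an ER lectin of that pathway (-0.73, SE 0.14, edgeR adjusted p = 0.00173), and Sel1l, the scaffold of its ubiquitin ligase (-0.25, SE 0.08, adjusted p = 0.0296). Erlec1 was also lower in SMA brain than in SMA spinal cord (-0.90, SE 0.15, edgeR adjusted p = 0.000555). By the same rule 20.1% of all genes were lower in brain in controls and 21.0% in SMA. Of 15 sensors and their partners 3 were followed (Atf6b, Eif2ak4 and Eif2s1), with none called in either comparison of genotypes or in either comparison of tissues.

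Of 45 symbols listed for targets of ATF4 and CHOP, older and newer names of a gene counted apart, 6 were followed. Ero1a, also on that list, is the newer name of Ero1l, which was followed with the folding genes. Ddit4, an inhibitor of mTORC1 that both stress and growth factors regulate, was higher in SMA spinal cord, with 49.1 ± 3.90 CPM in control and 58.0 ± 2.53 in SMA (SD, n = 3) and a log2 fold change of 0.23 (SE 0.09, unadjusted p = 0.0462, edgeR adjusted p = 0.684). It was 1 of the 6, and 3.73% of all genes were called higher in that comparison. The other 5, Mthfd2, Slc3a2, Cars, Wars and Tars, were not called in either tissue, and in SMA brain, where Ddit3 was lower, the 6 lay between -0.12 and 0.03 with a median of -0.03. The tRNA synthetase Tars had the lowest value in spinal cord (-0.29, SE 0.13, unadjusted p = 0.0652).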

How the data were processed

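Ribosome-protected fragments were measured in 12 libraries, 3 for each of 4 groups, and every column of the table was matched to a sample by its label. Per the submitters' processing notes and the methods of the study, adapters were removed with cutadapt 4.1, rRNA and tRNA reads were discarded, and the rest were aligned with STAR 2.5.3a to mouse build GRCm38.p6 with Gencode annotation, reads with several alignments being kept. Genes of low FPKM in all replicates of a condition were dropped, which left 10481 genes. The authors deposited raw counts of footprints per gene and library, and beside them, as another column, each gene's length, the union of its exons. The counting tool, and the use of strand in it, are not given in the sources used here. No line lacks a gene identifier.

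The members are defined by Ensembl identifier. Members and lists were chosen with earlier results of these data known. Names of other genes came from supplementary tables of the study for 1999 identifiers, and none of the identifiers matched the RefSeq table.

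Tests used edgeR 4.0.16 in R 4.3.3 (TMM, estimateDisp, glmQLFit, glmQLFTest, 2-sided), with limma 3.58.1 installed. SMA was compared with control on the 6 libraries of a tissue, the design of the study, and tissues and the interaction on all 12. P-values were adjusted over all genes with the Benjamini-Hochberg method. Members were called between genotypes and in the interaction at an unadjusted p below 0.05, the study's p cutoff without its fold threshold. Between tissues they were called at an adjusted p below 0.05. The study's fold threshold was an absolute log2 fold change of 0.5, with a mean CPM of at least 0.05. The standard error was taken as the absolute log2 fold change from the fit's unshrunk coefficients over the square root of F. Levels are CPM with TMM factors over 12 libraries. Within groups, libraries differed by more than sampling noise (chi-square per gene of 3.85 to 23.1). The biological coefficient of variation was 0.108 in brain and 0.220 in spinal cord. With 3 libraries against 3, an exact permutation test of a single gene cannot go below p = 0.1, so none was used. Genes named beside the members were all those of each pathway list that were called, at most 2 in each direction with the smallest p, plus the 5 named genes most like Hspa5 and Atf4, and other list genes named were chosen after their values were seen.

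Alternatives were DESeq2 1.42.0, library size alone, upper-quartile factors, filterByExpr, robust estimation, 1 fit over all 12 libraries, each library's loess trend on counts per base (span 0.3) taken out, the replicate number as a block, and leaving out each library. Deviations of same-numbered libraries from the group means had correlations of 0.345, 0.114 and 0.151 between SMA brain and SMA spinal cord. The labels do not say whether such libraries share an embryo. The tests printed here did not pair them, and the block was used only as an alternative. The scripts were tested on simulated counts. Promoters were searched and figures drawn with Python 3.11.15, pandas 2.3.3, numpy 2.4.6 and matplotlib 3.10.9. 1 marker of the tissue check is not reported here.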

Additional observations from a re-analysis of the deposited data

How the results depend on the processing

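Counts of called members depended most on abundance and on single libraries. The share of all genes called in each alternative setting is not given here, so these counts cannot be set against it. With the abundance trend taken out, called members were 2 between genotypes in brain, 0 in spinal cord, 6 between tissues in controls, 4 in SMA and 1 in the interaction (Ddit3, -0.99). Values that changed sign there included Hspa5 (-0.0049), Hsp90b1, Canx and Pdia6 in SMA against control spinal cord. In control brain against control spinal cord they included Hspa5 (-0.16), Hsp90b1 (-0.25), Calr (-0.17) and Pdia3 (-0.25). In the interaction they included Hspa5 (0.04) and Hsp90b1 (0.05). Library size alone gave 4 members between tissues in SMA, and robust estimation 1 in the interaction. The causes were not tested. Leaving out 1 library at a time gave 1 to 1 called members between genotypes in brain, 0 to 4 in spinal cord, 2 to 4 between tissues in controls, 1 to 4 in SMA and 0 to 3 in the interaction. The count for controls was 4 without control brain library 1, with Hspa5 (0.22) and Hsp90b1 (0.19) added, and that for SMA was 4 when SMA brain library 3 was left out and 1 when library 1 was. The interaction count was 3 without SMA brain library 3 (Canx, Pdia3 and Ddit3).

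The replicate number as a block gave the same counts of called members, 1 in brain, 3 in spinal cord, 2 between tissues in either genotype and 0 in the interaction. That block joins control and SMA libraries of a number, which are different embryos. These counts therefore do not check a pairing of brain and spinal cord within an embryo. Outside the SMA tissues, correlations of same-numbered libraries were -0.142, 0.024 and 0.0006 between control and SMA brain and 0.232, 0.700 and -0.453 in spinal cord. Between the control tissues they were 0.113, 0.0096 and 0.127, all positive as in the SMA tissues. These values do not set the SMA tissues apart. DESeq2 gave 1, 3, 2, 3 and 0 members in the order brain, spinal cord, control tissues, SMA tissues and interaction. Over all alternatives, the median log2 fold change of all genes stayed within 0.1 of 0. Ddit3, with 13 to 132 counts a library, is limited by depth.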
